A study of Mus musculus with 4 samples.

Results

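The genes described here are the Zfp genes of the mouse, those whose symbol is Zfp followed by a number, and 89 of them had a value on at least 1 of the 4 arrays of the series. They were chosen by the symbol that the platform annotation gives a feature. The rule used no size or sign of a value, only that a value was present on at least 1 array. It was set with earlier results of these data known. The annotation placed 93 Zfp genes on the arrays, on 102 of 16281 features, among 10698 named genes. For 4 of them, Zfp28, Zfp287, Zfp644 and Zfp773, the table held no value other than an exact 0, which was read as no value. A value on all 4 arrays was available for 68 Zfp genes, among 6661 named genes in all, and the other 21 had values on 3 arrays (8 genes), 2 arrays (8 genes) or 1 array (5 genes).

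The symbol Zfp stands for zinc finger protein. A zinc finger is a short fold held together by a zinc ion, and most Zfp proteins carry a row of fingers of the C2H2 kind that read DNA bases. Many of these also carry a KRAB domain, which recruits the corepressor Trim28 and with it histone methylation and silencing, and their genes often lie side by side in clusters that grew by duplication. Other Zfp proteins have CCCH or other fingers that bind RNA, among them Zfp36, which speeds the decay of messenger RNAs with AU-rich ends. The symbol therefore groups genes by a fold and not by a pathway.

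The 4 arrays compared RNA of the hippocampal dentate gyrus, where granule cells are the principal neurons, of young male C57BL/6J mice. The MK-801 group received MK-801 at 300 µg per g body weight and its RNA was labelled with Cy5 (red). The saline group received saline at 5 µL per g body weight and its RNA was labelled with Cy3 (green). MK-801 (dizocilpine) blocks the channel of the NMDA-type glutamate receptor. The dose is given as labelled. It is far above doses in common use, and whether the labels hold an error of unit cannot be settled here. The arrays were for 1, 2, 4 and 6 h, with 1 array for each time, no repeat and no exchange of dyes. The labels count the hours from the last shock of the MK-801 mice, yet they describe the RNA of both channels as from control mice. Whether the mice of these arrays were shocked is thus not settled, nor is the number of mice behind an array.

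All values are log ratios of both channels, read as log2 and centred on the median of each array. The deposited table states neither the log base nor which channel is on top. Natural logarithms remain possible, in which case each log2 size would be larger by a constant factor. Results are for this reason reported as positive or negative, with the table's own sign, and no statement is made on which of MK-801 and saline was higher. No intensities were used, so levels of genes cannot be compared, and the identity of the tissue could be looked at through ratios alone. In bulk tissue, fewer cells of a type and less RNA per cell cannot be told apart. A dye bias of a gene and the treatment cannot be told apart in any value that is not a difference between times.

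The 1 h array stood apart from the later arrays, for the Zfp genes as for all genes. Across the 68 Zfp genes the correlation between the 1 h array and the arrays of 2, 4 and 6 h was -0.108, 0.01 and -0.143. The 3 later arrays correlated at 0.554 (2 and 4 h), 0.573 (2 and 6 h) and 0.76 (4 and 6 h). Across all 6661 genes these 6 values were -0.058, -0.083, -0.077, 0.628, 0.665 and 0.793. With genes at or under -1.5 on any array left out, they were -0.13, -0.156, -0.147, 0.474, 0.533 and 0.709. Genes on an array share its labelling and its hybridisation, so these correlations are descriptions. Counts over the arrays, the tests of the mean and of the slope, and the named slopes are also given without the 1 h array.

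As a group the Zfp genes lay below zero on every array, by small amounts. Their median log2 ratio at 1, 2, 4 and 6 h was -0.0928, -0.0751, -0.0449 and -0.0695, while that of all 6661 genes was -0.0317, -0.0059, -0.0015 and 0.003. Of the 68 Zfp genes, the positive ones numbered 22, 23, 29 and 24 in the same order. These are 32.4%, 33.8%, 42.6% and 35.3%, beside 45.3%, 48.8%, 49.8% and 50.5% of all genes. The Zfp genes were also spread less widely than all genes on each array. The SD over Zfp genes was 0.274, 0.241, 0.236 and 0.174 at 1, 2, 4 and 6 h, and over all genes 0.302, 0.272, 0.304 and 0.270.

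**Figure D1:**
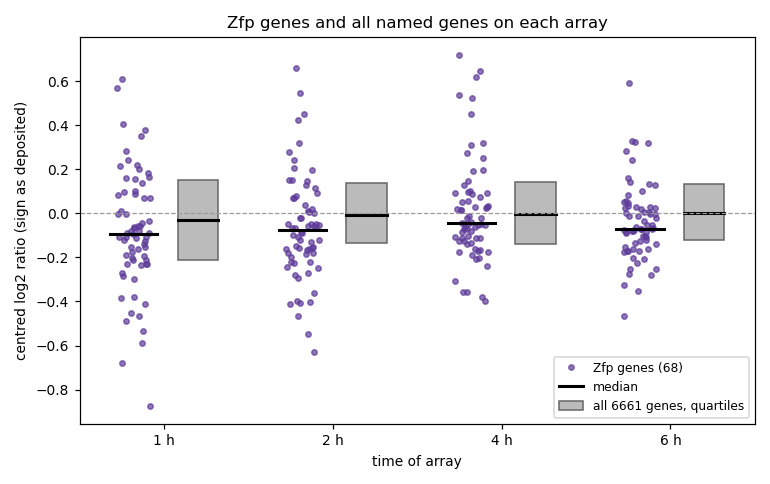
Centred log2 ratio (vertical axis, sign as deposited) of the 68 Zfp genes with values on all 4 arrays, 1 point per gene and 1 column of points per array, with a line at their median. The grey boxes run between the quartiles of all 6661 genes, with a line at the median, and the Zfp median lies below that of all genes on each array.

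The extremes differed from array to array. At 1 h the values ran between -0.8755 for Zfp346, which binds double-stranded RNA, and 0.6109 for Zfp36l1, a CCCH protein of messenger RNA decay. At 2 h they ran between -0.6312 for Zfp275 and 0.6581 for Zfp90. At 4 h the lowest was Zfp618 at -0.399 and the highest Zfp235 at 0.7202. At 6 h the same pair stood at the ends, with Zfp618 at -0.4654 and Zfp235 at 0.5903. Human ZNF618 is known as a partner of the methylcytosine reader UHRF2, and Zfp235 is a KRAB zinc finger gene of chromosome 7.

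None of the 68 Zfp genes passed an absolute log2 ratio of 1, that is a 2-fold difference, on any array. Over all genes the share that passed at 1, 2, 4 and 6 h was 0.661%, 0.661%, 0.721% and 0.631%. At an absolute ratio of 0.5, the Zfp genes past it were 6 at 1 h (8.95% of all genes), 4 at 2 h (3.51%), 5 at 4 h (5.96%) and 1 at 6 h (4.52%). The 6 at 1 h were Zfp346, Zfp105 (-0.68), Zfp2 (-0.59) and Zfp40 (-0.53) on the negative side, with Zfp36l1 and Zfp87 (0.57) on the positive side. At 2 h they were Zfp275 and Zfp398 (-0.55), both negative, and Zfp90 and Zfp111 (0.55), both positive. All 5 at 4 h were positive, namely Zfp235, Zfp60 (0.65), Zfp354b (0.62), Zfp90 (0.54) and Zfp36l1 (0.52). The 1 at 6 h was Zfp235. As shares of the 68 these are 8.82%, 5.88%, 7.35% and 1.47%. At 1 h the share was near the background. It lay above the background at 2 and 4 h and below it at 6 h. These differences rest on at most 5 genes, so nothing is read from them. These counts use only features with values on all 4 arrays. Averaged over every feature with a value on that array, Zfp60 gave 0.39 and Zfp354b 0.32 at 4 h, and Zfp36l1 0.48 at 1 h. None of these values passes 0.5, so among the 68 genes the shares at 1 and 4 h would be smaller. Genes without values on all 4 arrays are left out of these shares, and 3, 0, 1 and 1 of them passed 0.5 at 1, 2, 4 and 6 h. The background was not counted over every feature, so whether the 4 h share stays above it was not tested. With 1 array per time the shares carry no test.

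Over the 4 arrays together, 18 Zfp genes were negative on every array, beside a background of 13.8% of all genes, and 2 were positive on every array, beside 11.1%. The 18 make 26.5% of the 68. This is a description, with no test. With the 1 h array left out, 30 Zfp genes were negative at 2, 4 and 6 h, beside 28.7% of all genes, and 12 were positive, beside 28.3%. The 30 comprise the 18 above and 12 that were positive at 1 h and negative at the 3 later times, beside 15% of all genes. The other way round, 10 were negative at 1 h and positive at the 3 later times, beside 17.2%.

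**Figure D2:**
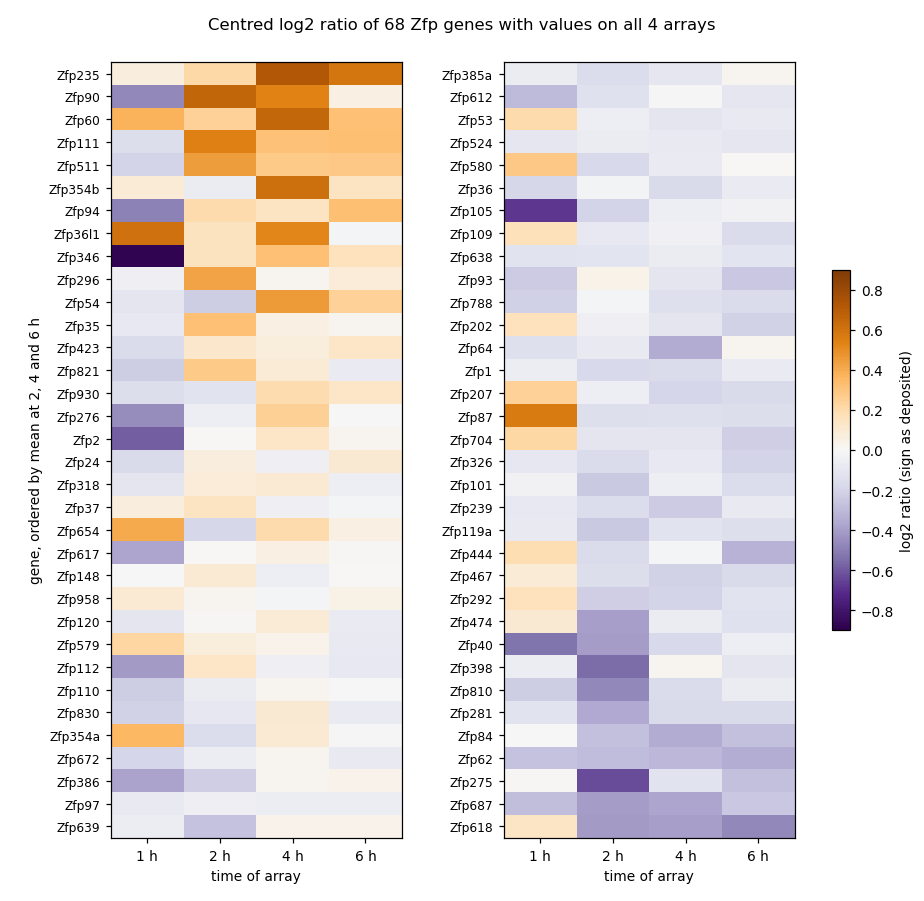
Centred log2 ratio of each of the 68 Zfp genes (rows, in 2 columns of panels, ordered by their mean at 2, 4 and 6 h) on the arrays of 1, 2, 4 and 6 h (columns). Orange marks positive and purple negative deposited values, Zfp235 stands at the top of the order and Zfp618 at the bottom, and the 1 h column often differs in colour from the later columns.

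Among the 18, Zfp62 and Zfp687 had the largest ratios on their weakest array. Zfp62 gave -0.27, -0.29, -0.31 and -0.35 at 1, 2, 4 and 6 h, a mean of -0.31 ± 0.03 (SD over the 4 arrays). Its values were nearly the same at all times. Zfp687 gave -0.28, -0.40, -0.38 and -0.25, a mean of -0.33 ± 0.07. Human ZNF687 is known from a transcription complex with ZMYND8. Zfp281, a factor that binds GC-rich promoters and is known from embryonic stem cells, gave -0.12, -0.36, -0.17 and -0.17, and its 2 h value was the lowest of the 4. Zfp810 gave -0.23, -0.46, -0.17 and -0.07, also lowest at 2 h. Zfp326, a subunit of a complex that joins RNA polymerase II to splicing, gave -0.09, -0.16, -0.09 and -0.20. Both of its features were negative on all 4 arrays and differed by at most 0.081. Zfp239 gave -0.09, -0.16, -0.24 and -0.08. Zfp119a gave -0.08, -0.24, -0.12 and -0.14, and Zfp524 gave -0.11, -0.07, -0.08 and -0.10. The other 10 of the 18 were Zfp1, Zfp36, Zfp40, Zfp84, Zfp97, Zfp101, Zfp105, Zfp612, Zfp638 and Zfp788. Their weakest values lay close to 0, at -0.0043 for Zfp84 at 1 h, and without centring 16 genes were negative on all arrays.

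The 2 genes positive on every array were Zfp60 and Zfp235, both KRAB zinc finger genes of chromosome 7. Zfp60 gave 0.38, 0.24, 0.65 and 0.32 at 1, 2, 4 and 6 h, a mean of 0.40 ± 0.18. A second feature of Zfp60, with no value at 1 h, gave 0.10, 0.14 and -0.05 at 2, 4 and 6 h, so the features of this gene differ by up to 0.507 on 1 array. Zfp235 rested on 1 feature and gave 0.07, 0.21, 0.72 and 0.59, a mean of 0.40 ± 0.31. Its 4 and 6 h values were both above those of 1 and 2 h.

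The mean of the 4 arrays was tested against 0 in limma, where the only error available is the spread between times. No Zfp gene passed a Benjamini-Hochberg adjusted p of 0.05, and neither did any other gene (background 0%). At an unadjusted p under 0.05, limma placed 10 of the 68 Zfp genes and 976 of all 6661. The lowest adjusted p among Zfp genes was 0.237 in limma, reached by Zfp687, Zfp62 and Zfp60, whose mean log2 ratios and standard errors were -0.33 ± 0.064, -0.31 ± 0.060 and 0.40 ± 0.085. The lowest over all genes was 0.167. Such p-values reflect how arrays of unlike times scatter, not how mice of a group do.

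Without the 1 h array, 8 Zfp genes passed the limma test of the mean over 2, 4 and 6 h. Of these, 4 were positive, beside 6.95% of all genes, and 4 were negative, beside 5.9%. Each 4 is 5.88% of the 68, near the background on either side. With all 4 arrays and limma's array weights, which let an array count less, 12 Zfp genes passed, 4 positive beside 14% of all genes and 8 negative beside 12.9%. These were the same 8 with Zfp281, Zfp275, Zfp467 and Zfp326 added. The signs of these genes were picked out by the same arrays that test them.

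Zfp111, a KRAB zinc finger gene next to Zfp235, gave 0.55, 0.31 and 0.33 at 2, 4 and 6 h, and -0.15 at 1 h. Its later mean was 0.40 ± 0.069 (SE), with an adjusted p of 0.0276 in limma. Zfp511 gave 0.45, 0.28 and 0.28 at the later times, and -0.20 at 1 h (later mean 0.34 ± 0.062, adjusted p = 0.0315, limma). Both genes thus turned sign between the 1 h array and the later arrays. Zfp235 had a later mean of 0.51 ± 0.10 (adjusted p = 0.0375, limma), and Zfp60 of 0.40 ± 0.090 (adjusted p = 0.0419, limma) on the feature with 4 values.

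The 4 negative genes were Zfp618, Zfp62, Zfp687 and Zfp84. Zfp618 gave -0.41, -0.40 and -0.47 at 2, 4 and 6 h, and 0.14 at 1 h. Its later mean was -0.43 ± 0.054 (SE), with an adjusted p of 0.0151 in limma, the lowest among Zfp genes. The later means of Zfp62 and Zfp687 were -0.32 ± 0.054 and -0.34 ± 0.060, with adjusted p of 0.0267 and 0.0275 in limma. Zfp84, a KRAB zinc finger gene of chromosome 7, gave -0.28, -0.36 and -0.28 at the later times, against -0.00 at 1 h (adjusted p = 0.0291, limma). The next 3 genes in order of p, which missed the threshold, were Zfp94 (0.22 ± 0.061, adjusted p = 0.0616), Zfp281 (-0.23 ± 0.064, adjusted p = 0.0618) and Zfp90 (0.42 ± 0.12, adjusted p = 0.0669).

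**Figure D3:**
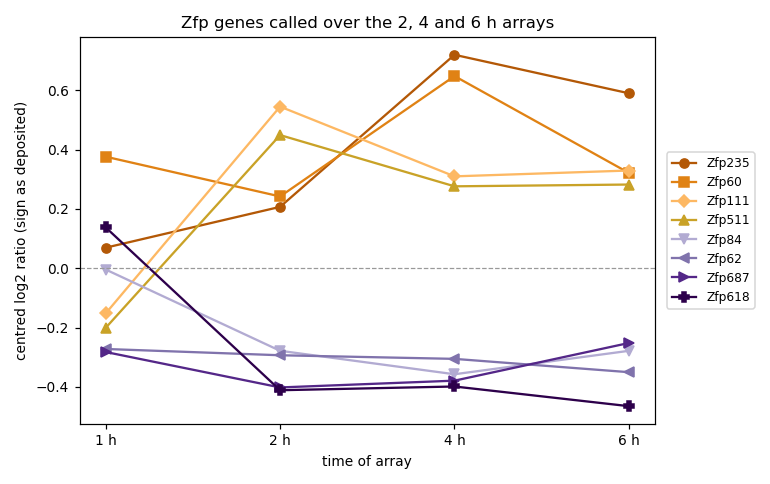
Centred log2 ratio (vertical axis, sign as deposited) at 1, 2, 4 and 6 h of the 8 Zfp genes whose mean over the 2, 4 and 6 h arrays passed limma, 1 line per gene and 1 point per array. At 1 h the lines of Zfp111 and Zfp511 lie below zero and that of Zfp618 above it, on the other side from their later values.

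Change with time was tested in 2 ways, in both of which a constant dye bias cancels. Neither the slope on log2 hours nor the difference of the 4 and 6 h arrays from the 1 and 2 h arrays gave a Zfp gene past an adjusted p of 0.05 in limma, nor any other gene (background 0% for both). At an unadjusted p under 0.05 in limma there were 10 of 68 Zfp genes for the slope (14.7%), beside 1060 of 6661 genes in all (15.9%). For late against early there were 3 Zfp genes (4.41%), beside 383 genes in all (5.75%). The lowest adjusted p of a Zfp gene was 0.275 for the slope (Zfp105) and 0.76 for late against early (Zfp235 and others), both in limma.

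The Zfp genes of smallest unadjusted p for a positive slope were Zfp105, Zfp235, Zfp40, Zfp94 and Zfp346. Zfp105 gave -0.68, -0.20, -0.05 and -0.03 at 1, 2, 4 and 6 h, and Zfp40 gave -0.53, -0.41, -0.18 and -0.05. Both were negative throughout and nearest to 0 at 6 h. Zfp346 gave -0.88 at 1 h against 0.15, 0.32 and 0.16 later, so its slope rests on the 1 h array. Zfp94 gave -0.49, 0.20, 0.15 and 0.32 in the same order. For a negative slope they were Zfp87, Zfp618, Zfp207, Zfp704 and Zfp202. Zfp87 gave 0.57 at 1 h against -0.15, -0.14 and -0.15 later, again a contrast of 1 array with the other 3. Zfp207, known as a spindle protein that binds Bub3, gave 0.24, -0.06, -0.19 and -0.17. Zfp704 gave 0.22, -0.11, -0.11 and -0.22, and Zfp202 gave 0.16, -0.05, -0.11 and -0.21. In each of these 5 negative slopes the 1 h value was the only positive one. Without the 1 h array the slope of Zfp346 was 0.02, against 0.40 with it, that of Zfp94 0.07 against 0.28, and that of Zfp105 0.11 against 0.25. The slope of Zfp87 became -0.00, against -0.26 with all arrays, that of Zfp618 -0.03 against -0.21, that of Zfp207 -0.08 against -0.16, that of Zfp704 -0.07 against -0.15, and that of Zfp202 -0.10 against -0.13. Those of Zfp235 (0.27 against 0.25) and Zfp40 (0.22 against 0.19) did not shrink. Without the 1 h array limma again called 0 Zfp genes for the slope. At an unadjusted p under 0.05 in limma there were 4 (5.88%), beside 6.41% of all genes. For late against early this leaves the 2 h array alone on the early side, so no count is given. The median difference was then 0.021 over Zfp genes and 0.004 over all genes.

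For late against early times, the smallest p on the positive side belonged to Zfp235 (difference 0.52 ± 0.13 SE), Zfp54 (0.52 ± 0.14), Zfp40 (0.35 ± 0.13), Zfp386 (0.33 ± 0.13) and Zfp930 (0.30 ± 0.12). Zfp54, a gene of a chromosome 17 cluster, gave -0.11 and -0.23 at 1 and 2 h, and 0.45 and 0.24 at 4 and 6 h. Its neighbour Zfp51, with no value at 1 h, gave 0.03, 0.46 and 0.49 at 2, 4 and 6 h, and Zfp53 gave 0.20, -0.05, -0.11 and -0.08. Thus 2 of the 3 neighbours had their highest values at the later times and the third had its highest at 1 h. On the negative side the genes were those of the negative slopes. Without the 2 h array, the 1 h array stands alone on the early side, so no count of genes past the threshold is given. The median difference was then 0.03 over Zfp genes and 0.04 over all genes, against 0.03 and 0.02 with all 4 arrays.

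Among Zfp proteins known to act on RNA, 12 were on the platform and 9 were tested. None passed over 2, 4 and 6 h (6.95% of all genes passed as positive and 5.9% as negative), and 3 of the 9 were negative on all 4 arrays (13.8% of all genes). Their medians were -0.11, -0.06, -0.06 and -0.07 at 1, 2, 4 and 6 h. Of the CCCH proteins of messenger RNA decay, Zfp36 (tristetraprolin), itself the product of an immediate early gene in many cells, gave -0.19, -0.02, -0.17 and -0.07. Zfp36l1 gave 0.61, 0.15, 0.52 and -0.01, and a second feature of it, with values at 1 and 2 h, gave 0.34 and 0.23. The 2 features of Zfp36l1 were thus both positive at 1 and 2 h. The mean of Zfp36l1 over 4 arrays was 0.32 ± 0.30 (SD), and its adjusted p was 0.312 in limma. Zfp36l2 had 1 value, 0.09 at 1 h. Zfp638, a nuclear RNA-binding protein, gave -0.12, -0.12, -0.06 and -0.12, close to one another. Zfp385a, an RNA-binding protein and p53 partner, gave -0.07, -0.16, -0.10 and 0.02. Zfp593, whose human and yeast relatives take part in making the large ribosomal subunit, gave -0.00, -0.12 and -0.16 at 1, 4 and 6 h. Zfp318 gave -0.11, 0.08, 0.09 and -0.05, but a second feature gave -0.63 at 1 h, a gap of 0.528. Zfp830 gave -0.21, -0.10, 0.10 and -0.07, and Zfp106 had 1 value, -0.01 at 2 h.

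Of Zfp transcription factors known from neural cells and development, 7 were on the platform and all were tested. None passed over 2, 4 and 6 h (6.95% of all genes passed as positive and 5.9% as negative). Of the 7, 1 was negative on all 4 arrays, Zfp281 (13.8% of all genes). Zfp148, which binds GC-rich promoters like its relative Zfp281, gave -0.00, 0.09, -0.05 and 0.01, with a mean of 0.01 ± 0.06 (SD). Zfp24, needed in oligodendrocytes for myelination, gave -0.18, 0.07, -0.05 and 0.10. Zfp423, needed for cerebellar development, gave -0.16, 0.11, 0.07 and 0.13. Zfp292 gave 0.16, -0.22, -0.20 and -0.12, and Zfp37 gave 0.07, 0.15, -0.05 and -0.02. Zfp148, Zfp24 and Zfp423 lay between the quartiles of all genes on each array, and Zfp292 lay outside them on each. Zfp110, which binds the neurotrophin receptor p75, gave -0.23, -0.07, 0.02 and -0.00, and its features differed by up to 0.294. The genes of imprinting and stem cells had few values: Zfp57, which keeps imprints, had -0.14 at 1 h, and Zfp42 (Rex1) had 0.07 and 0.03 at 1 and 6 h. Zfp91, Zfp143, Zfp189, Zfp365, Zfp462, Zfp488, Zfp503, Zfp536, Zfp568, Zfp598, Zfp622, Zfp703 and Zfp809 had no feature under these symbols in the platform annotation.

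The 21 Zfp genes without values on all 4 arrays held the single value past 1. Zfp92 gave 1.29, 0.05 and -0.32 at 1, 2 and 6 h. Its 1 h value was far above the later ones. Among the others at 1 h, Zfp414 gave 0.71, with 0.15 and -0.28 at 4 and 6 h, and Zfp493 gave 0.50, with -0.05 and -0.06 at 2 and 4 h. Zfp108 gave 0.10 and 0.60 at 2 and 4 h, and Zfp30 gave -0.45, 0.14 and 0.55 at 1, 2 and 6 h. The median of these genes at 1, 2, 4 and 6 h was 0.245, 0.020, 0.028 and -0.093, over 12, 13, 10 and 10 genes. Missing values were less common among Zfp features than among all features: exact 0 stood in 25.5%, 24.9%, 37.4% and 35.4% of all features at 1, 2, 4 and 6 h, and in 17.6%, 14.7%, 19.6% and 19.6% of Zfp features. Of the 6 Zfp genes with values for 2 features, Zfp354b differed most between them, by 0.596 at 4 h, where 1 feature gave 0.62 and the other 0.02. Its place among the highest genes at 4 h therefore rests on 1 feature.

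The partners that KRAB zinc finger proteins recruit were examined as a list of 28 genes, of which 16 were tested. Their medians were -0.14, 0.11, 0.09 and 0.02 at 1, 2, 4 and 6 h. Trim28, the corepressor that binds the KRAB domain itself, gave -0.35, 0.15, 0.16 and 0.25, and missed the threshold over 2, 4 and 6 h (adjusted p = 0.0732, limma). Setdb1, the histone methyltransferase that Trim28 brings along, gave -0.49, 0.04, 0.15 and 0.02. Hdac1, a histone deacetylase of the same machinery, gave -0.21, 0.37, 0.31 and 0.24. It was the single one of the 16 that passed over 2, 4 and 6 h (0.31 ± 0.058 SE, adjusted p = 0.0324, limma). Over all genes 6.95% passed as positive and 5.9% as negative, so 1 of 16 is no more than a list of any genes could hold. Among 54 tested zinc finger genes of other names (Klf, Zbtb, Zkscan, Sp and the like), 13 were negative and 1 positive on all 4 arrays (13.8% and 11.1% of all genes), and their medians were -0.13, -0.07, -0.05 and -0.04. Without the 1 h array 2 of them were positive and 6 negative past the threshold (6.95% and 5.9% of all genes), among the negative Sp1 and Klf13. Their medians, too, were below those of all genes on each array. No test compared them with the Zfp genes. The list was matched by name and so holds Zbtb8os, Zfyve19 and Zfyve21, which are not of the C2H2 kind. Zbtb8os and Zfyve19 are among the 13 negative on all 4 arrays.

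Marker ratios moved on the same arrays. The share of all genes past the threshold over 2, 4 and 6 h was 6.95% positive and 5.9% negative. Of 4 tested astrocyte markers, Gfap, Aldoc and Slc1a3 were positive past the threshold over 2, 4 and 6 h (limma), and the list had medians of -0.10, 0.28, 0.36 and 0.41 at 1, 2, 4 and 6 h. The other astrocyte marker, Aqp4, was negative on all 4 arrays, at -0.14, -0.01, -0.25 and -0.09. Both tested choroid plexus markers, Ttr and Kl, were negative past it, with medians of -0.11, -1.16, -1.09 and -1.17. The 3 tested granule cell markers, Prox1, Calb1 and Neurod1, had medians of -0.21, 0.00, -0.10 and -0.06, and none passed. The 4 microglia markers had medians of 0.23, 0.10, 0.29 and 0.33, and 1, Fcer1g, passed as positive. The 3 tested oligodendrocyte markers had medians of -0.02, 0.09, 0.15 and 0.07, with all 3 positive at 2, 4 and 6 h and none past the threshold. The 3 tested vessel markers had medians of 0.13, -0.22, -0.12 and 0.05. Of these, Flt1 passed as negative (-0.34 over 2, 4 and 6 h, adjusted p = 0.0282, limma), and Cldn5 stood at -1.05 at 1 h. The single tested blood marker, Hba-a1, gave 0.24, 0.49, 0.09 and 0.21 and did not pass. The part of cell makeup in the Zfp ratios was not tested.

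By position, the 89 Zfp genes lay on 17 chromosomes of the RefSeq gene table, 21 of them on chromosome 7. Counting genes with at most 7 other genes between them as neighbours, 35 lay in 13 runs of at least 2. The longest run held 7 genes of chromosome 7, in the order Zfp112, Zfp235, Zfp111, Zfp109, Zfp108, Zfp93 and Zfp94, with at most 1 gene between them. Neighbours in this run did not share a pattern of values. Zfp112 gave -0.41, 0.13, -0.04 and -0.09 at 1, 2, 4 and 6 h, Zfp109 gave 0.16, -0.09, -0.04 and -0.16, and Zfp93 gave -0.24, 0.04, -0.11 and -0.25, all within 0.3 of 0 at the later times. Zfp235 and Zfp111, described above, were positive at each later time, as was Zfp94. Of the 6 tested genes of the run, 2, 5, 3 and 3 were positive at 1, 2, 4 and 6 h. The 17 tested genes of chromosome 7 had medians of -0.11, 0.04, -0.02 and -0.07, and the 51 on other chromosomes -0.09, -0.12, -0.05 and -0.07. Of the 8 genes called over 2, 4 and 6 h, 5 lay on chromosome 7, namely Zfp60, Zfp84, Zfp111, Zfp235 and Zfp511. Only Zfp111 and Zfp235 of these lie in the run. Over all genes 6.95% passed as positive and 5.9% as negative, and no share is given for all genes of chromosome 7. No test was made of the count of 5.

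**Figure D4:**
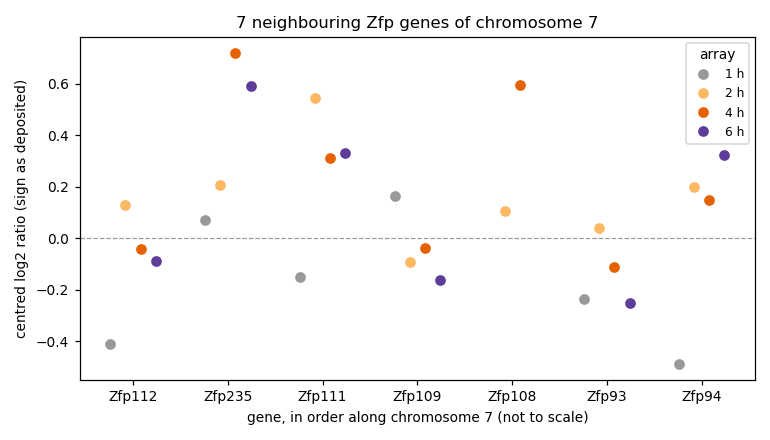
Centred log2 ratio (vertical axis, sign as deposited) of the 7 neighbouring Zfp genes of chromosome 7, placed in their order along the chromosome with equal spacing, 1 point for each array with a value. Zfp235, Zfp111 and Zfp94 lie above zero at 2, 4 and 6 h, while Zfp109 and Zfp93 lie mostly below it, and Zfp108 has values at 2 and 4 h alone.

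Promoters of 5 of the 7 genes of this run share a sequence. It is shown because it marks which neighbours are alike in their control regions. RefSeq windows of 250 bases before to 50 after a gene's start (build GRCm38.p6) were available for 70 of the 89 genes, in 92 windows, and for 27025 genes in all. They were searched on both strands for TTCTGGGA and GGANNTGTA, the parts of the element that the protein Zfp143 binds, which overlap by the 3 letters GGA where they are joined. The first part stood in 11 of the 70 genes (15.7%, and 3.65% of all genes) and the second in 14 (20%, and 5.14%). Both parts joined stood in 6 of the 70 (8.57%), and in 119 of 27025 genes in all (0.44%). The 27025 were not filtered by gene type and may include genes that make no protein. The 6 were 5 genes of the run and Zfp84, also on chromosome 7. In the stretches of 80 bases below, written 5′ to 3′ on the strand of the gene, capitals mark the matches, and in Zfp108 a second match to the first part follows on the other strand.
Zfp112: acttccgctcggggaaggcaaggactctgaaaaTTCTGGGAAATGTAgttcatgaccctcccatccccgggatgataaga
Zfp111: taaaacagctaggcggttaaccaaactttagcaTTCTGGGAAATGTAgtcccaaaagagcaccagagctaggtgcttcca
Zfp109: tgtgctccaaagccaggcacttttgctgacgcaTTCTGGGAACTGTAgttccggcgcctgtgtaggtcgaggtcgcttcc
Zfp108: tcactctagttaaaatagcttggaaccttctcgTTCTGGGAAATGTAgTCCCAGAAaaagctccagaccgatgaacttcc
Zfp93: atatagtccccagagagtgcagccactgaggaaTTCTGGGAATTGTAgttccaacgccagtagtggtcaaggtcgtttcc
Zfp84: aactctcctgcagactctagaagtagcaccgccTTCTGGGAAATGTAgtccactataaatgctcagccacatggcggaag
The stretches are Zfp112 from chr7:24112134-24112213 on the plus strand, Zfp111 from chr7:24208171-24208250 on the minus strand, Zfp109 from chr7:24237681-24237760 on the minus strand, Zfp108 from chr7:24254633-24254712 on the plus strand, Zfp93 from chr7:24270309-24270388 on the plus strand and Zfp84 from chr7:29768492-29768571 on the plus strand. Genes that arose by duplication share sequence by descent, so the 6 are not independent.

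The genes with the joined element did not share a direction. Zfp111 was positive and Zfp84 negative past the threshold over 2, 4 and 6 h, with the same 14 letters in capitals in both promoters. The 5 tested genes with it had medians of -0.15, 0.04, -0.04 and -0.16 at 1, 2, 4 and 6 h, and the 50 tested genes with a window and no joined element -0.09, -0.07, -0.05 and -0.07. Zfp235, which was positive on all 4 arrays, is not among the 6.

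Promoter letters tied to activity were looked for in the same windows, since NMDA receptors feed calcium signals that act on such sites. TGACGTCA, the full cyclic AMP response element, stood in 0 of the 70 genes and in 2.03% of all genes. GCGGGGGCG, the site of the immediate early Egr proteins, stood in 5 (7.14%, and 3.31% of all genes), which were Zfp36, Zfp385a, Zfp618, Zfp821 and Zfp92. The windows of Zfp36, the one known immediate early gene among them, and of Zfp618, the lowest Zfp gene at 4 and 6 h, are shown with the match in capitals.
Zfp36: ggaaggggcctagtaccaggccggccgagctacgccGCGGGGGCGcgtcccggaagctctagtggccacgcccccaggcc
Zfp618: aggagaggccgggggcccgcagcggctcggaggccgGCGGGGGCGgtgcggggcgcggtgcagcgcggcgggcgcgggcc
The first is chr7:28379290-28379369 on the minus strand and the second chr4:62965394-62965473 on the plus strand. The short boxes CCAAT and GGGCGG stood in 50% and 55.7% of the 70 genes, and in 41.1% and 38.2% of all genes. GGGCGG can overlap the Egr site. A match is a description of letters and not of binding.

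**Figure D5:**
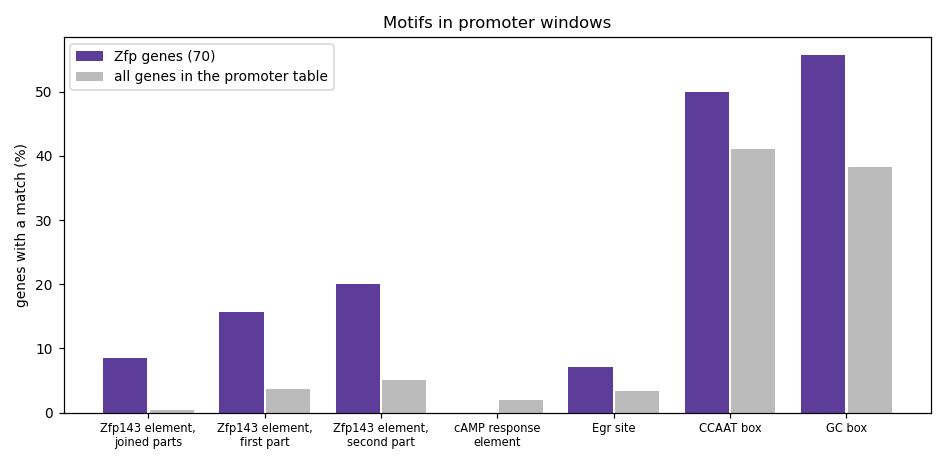
Share of genes (percent, vertical axis from 0) with at least 1 match in a RefSeq promoter window, for 70 Zfp genes (purple) and all 27025 genes (grey), for each searched motif. The joined Zfp143 element stands in 8.57% of Zfp genes and 0.44% of all genes, and the cyclic AMP response element in no Zfp gene.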

How the data were processed

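The deposited table holds 1 column per array of log2 ratios of the Cy5 and Cy3 channels, as read here. The scanning, background correction and normalisation by the authors are not given in the sources used here. Exact 0 was read as no value, arrays were centred on the median of their other values (0.0074, 0.0093, 0.0165 and 0.0052 at 1, 2, 4 and 6 h, so the deposited values lay near 0 already), and features of a gene with values on all 4 arrays were averaged. Names come from the platform annotation, and the identifiers of 13694 of 13738 features with 1 symbol matched the RefSeq gene table (GRCm38.p6), with 0 symbols changed. All 102 Zfp features matched. The fits used lmFit and eBayes of limma 3.58.1 under R 4.3.3 on all 6661 genes with Benjamini-Hochberg adjustment, two-sided, at 0.05, and were tested on simulated data. The number of arrays limits the precision.

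The members and lists were chosen with earlier results of these data known. The rule for named genes took, among Zfp genes, up to 8 of each sign with the same sign on all arrays, those past 1 on an array, the 3 highest and 3 lowest on each array, the 5 of smallest p in each direction of slope and of late against early, those called without the 1 h array, the 6 whose features differ most, and a list always named. Incomplete genes, neighbours in the chromosome 7 run and motifs were added with their values known, as was the use of 0.5 in the text on each array. Classes by protein sequence were not used here. Alternatives covered the features required, exact 0, centring, spread, quantile normalisation, several features, array weights, the time scale, the log base and leaving out each array.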

Additional observations from a re-analysis of the deposited data

Results flagged for a closer look

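For 5 of the 68 tested Zfp genes both early arrays had one sign and both late arrays the other. No share of all genes is given for this pattern, so whether 5 is more than usual was not tested. In 4 of them the values were negative at 1 and 2 h and positive at 4 and 6 h. The mean at 4 and 6 h minus that at 1 and 2 h was 0.515 for Zfp54, 0.3288 for Zfp386, 0.2989 for Zfp930 and 0.1974 for Zfp639. Zfp386 gave 0.02 and 0.03 at 4 and 6 h, against -0.38 and -0.22 at 1 and 2 h. Zfp930 gave 0.19 and 0.13 at 4 and 6 h, against -0.15 and -0.12 at 1 and 2 h. Zfp639 gave 0.03 and 0.03 at 4 and 6 h, against -0.06 and -0.27 at 1 and 2 h. Zfp37 ran the other way, with -0.05 and -0.02 at 4 and 6 h against 0.07 and 0.15 at 1 and 2 h, a difference of -0.1407. In limma's test of late against early times the adjusted p was 0.779 for Zfp37 and 0.76 for each of the others, so none passed the threshold, and the signs on their own carry no test.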

How the results depend on the processing

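The count of 0 Zfp genes for the mean of the 4 arrays became 12 with array weights and ranged between 0 and 8 with 1 array left out, with 8 without the 1 h array. For late against early times it ranged between 0 and 11, with 11 without the 2 h array, which leaves the 1 h array alone on the early side, its spread taken to be like that of the other times. For the slope it stayed 0 under each alternative. At 1, 2, 4 and 6 h the count past 1, main value 0, was 6, 4, 5 and 1 at a threshold of 0.5. It was 1 at 1 h with every feature, the gene being Zfp92, and 1 at 1 h and 1 at 4 h with natural logarithms. Signs shared by all arrays were varied in settings chosen after seeing the data: the 18 negative genes ranged between 20 and 30 with 1 array left out (30 without the 1 h array) and were 16 without centring, and the 2 positive genes ranged between 3 and 12 (12 without the 1 h array, 4 without the 2 h or the 6 h array). Of the single genes named by the rule, 10 means kept their direction in 121 alternatives, with 10 of these newly past the threshold, and 10 slopes, none of them past the threshold, kept their direction in 130, though without the 1 h array 7 of them shrank by over 1.5 times (that of Zfp346, 0.40, to 0.02). Of 120 alternatives for 10 late against early differences, 114 were the same, 5 were newly past the threshold and 1 reversed: that of Zfp87, -0.36, became 0.0025 without the 1 h array, and its range with 1 array left out was -0.7132 to 0.0025. The causes were not tested. No paired analysis was possible because each time has 1 array, on which both groups are already set against each other. Signal over background cannot be given without intensities.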
